A study of Mus musculus with 8 samples.

Results

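The glutathione S-transferases are described here through 10 genes, namely Gsta2, Gsta3 and Gsta4 of the alpha class, Gstm1, Gstm2 and Gstm3 of the mu class, Gstp1 (pi), Gstt1 (theta), Gstk1 (kappa) and the membrane-bound Mgst1. All probe sets that the platform annotation pairs with 1 of these symbols alone were taken, 13 of the 12488 on the array. Of the 13, 5 carry a name ending (_f_at or _r_at) that marks sequences shared with other transcripts or probes chosen under relaxed rules, and these belong to Gstm1, Gstm2 and Gstm3. The RNA came from the livers of 8 female Ames dwarf mice (df/df), 24 to 26 months old, that ate a standard pelleted diet without restriction. The pituitary of Ames dwarf mice makes no growth hormone, prolactin or thyrotropin. All 8 animals form 1 group, no normal-sized littermates or other diets were analysed here, and so the values show how the genes differ from liver to liver, not what the dwarf genotype does to them. Each liver was hybridised to its own Affymetrix U74Av2 array and is called by the replicate number in its title.

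These enzymes join the thiol of glutathione to electrophiles, which makes drugs, toxins and products of lipid peroxidation more water-soluble and ready for export from the hepatocyte. The cytosolic classes differ in the substrates they prefer, the kappa enzyme sits in mitochondria and peroxisomes, and Mgst1 sits in the endoplasmic reticulum and the outer mitochondrial membrane. In rodent liver many alpha and mu genes are induced by electrophiles through the transcription factor NRF2, encoded by Nfe2l2, which binds antioxidant response elements (AREs), and by drugs through the nuclear receptor CAR, encoded by Nr1i3.

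Start-site windows of 4 members are printed because Gstm2, Gstm3 and Gstp1 had their highest 2 signals in the same 2 livers, 4 and 8, and Gstm1 did not. Each runs from 250 bases before the annotated start to 50 after it, 5′ to 3′ on the gene's strand, from RefSeq on GRCm38.p6. Capitals mark a TATA box or an AP-1 site.
Gstm2: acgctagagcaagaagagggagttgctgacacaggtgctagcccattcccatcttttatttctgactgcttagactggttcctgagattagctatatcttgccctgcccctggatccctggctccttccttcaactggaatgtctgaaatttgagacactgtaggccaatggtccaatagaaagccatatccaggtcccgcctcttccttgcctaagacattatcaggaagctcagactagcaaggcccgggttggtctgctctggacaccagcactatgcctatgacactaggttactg
Gstm3: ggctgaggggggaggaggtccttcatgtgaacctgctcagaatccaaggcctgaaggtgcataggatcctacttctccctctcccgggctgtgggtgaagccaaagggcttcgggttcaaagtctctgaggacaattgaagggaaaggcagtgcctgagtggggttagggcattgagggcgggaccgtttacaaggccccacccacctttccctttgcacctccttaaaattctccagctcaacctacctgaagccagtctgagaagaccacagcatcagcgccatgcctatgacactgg
Gstm1: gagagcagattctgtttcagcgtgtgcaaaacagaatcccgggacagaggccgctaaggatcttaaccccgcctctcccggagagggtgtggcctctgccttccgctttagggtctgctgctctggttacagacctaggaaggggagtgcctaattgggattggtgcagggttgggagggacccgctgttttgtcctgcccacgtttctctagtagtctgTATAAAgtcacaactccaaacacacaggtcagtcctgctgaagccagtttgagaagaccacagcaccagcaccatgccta
Gstp1: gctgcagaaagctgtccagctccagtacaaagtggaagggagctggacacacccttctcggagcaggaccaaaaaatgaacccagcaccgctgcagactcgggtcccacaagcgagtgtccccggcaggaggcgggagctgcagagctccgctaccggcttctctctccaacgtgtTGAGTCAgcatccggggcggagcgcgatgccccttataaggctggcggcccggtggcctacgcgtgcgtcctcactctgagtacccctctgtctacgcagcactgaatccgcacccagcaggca
The window of Gstm2 lies at chr3:107986371-107986670, that of Gstm3 at chr3:107969125-107969424, that of Gstm1 (the nearer to the gene of its 2 annotated starts) at chr3:108017769-108018068 and that of Gstp1 at chr19:4037863-4038162, all on the minus strand. RefSeq windows were found for 9 of the 10 members, and Gsta4 had no entry. Both strands were searched for 4 motifs. The ARE core TGACNNNGC occurred in the windows of Gsta3 (121 bases before the start) and of Mgst1 (56 bases before its upstream start), against 12.4% of the 32851 windows of all genes. The AP-1 site TGANTCA occurred in that of Gstp1, 74 bases before the start, against 7.81% of all windows. TATAAA occurred 30 bases before the start of Gstm1 and, on the opposite strand, 246 bases before that of Gsta2, against 13.6% of all windows. The interferon-type site TTCNNNGAA occurred in the downstream window of Mgst1, against 8.3%. None of these motifs overlapped another there. Gstm1 and Gstm3 shared a run of 16 bases after the start, tgagaagaccacagca, and Gstm2 and Gstm3 a run of 14, atgcctatgacact. The printed Gstm1 window ends in atgccta, the first bases of the latter run, so it cannot show whether Gstm1 has the rest. A match to these letters is no evidence that a factor binds there, and a window without a match says nothing about the factor.

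The array showed the RNA of a hepatocyte-rich tissue. Alb signals were between 25309.5 and 37059, and those of the cholangiocyte markers Krt19, Krt7 and Epcam were all at or under 42.3, below the signal of 162 that a probe set needed on average to be tested. The Pearson correlation between arrays lay between 0.907 and 0.973, and the beta-actin 3′ to 5′ ratio, a sign of RNA integrity, between 1.24 (liver 4) and 1.74. Median array intensity was highest in livers 8 (180.2) and 4 (177), against 155 to 168 in the other 6. Livers 4 and 8, singled out with earlier results of these data known, stood apart in macrophage genes. The 7 macrophage and Kupffer cell markers summed to 14739.6 in liver 4 and 10118.9 in liver 8, against 3061.1 to 5934.3 in the other 6. Among the 6 tested, Clec4f did not have its highest 2 signals in these livers (1356 in liver 8, against 1409 in liver 5 and 1528 in liver 6). The other 5 did, against 9.71% of all tested genes. Member values are therefore also given without livers 4 and 8. A signal depends on the probes as well as on the RNA, so levels are given per probe set and are not ranked between genes.

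Gstm2, Gstm3 and Gstp1 were highest in livers 4 and 8, Gstt1 was lowest there, and the other 6 members had neither pattern. By the typical-variance test, which asks whether a probe set varied more than most probe sets of like signal, 3 of the 10 members varied beyond that level, Gstm2, Gstm3 and Mgst1. Among all tested genes 494 of 4819 (10.3%) did so. At probe-set level, 5 of the 13 member probe sets passed, against 699 of 6211 (11.3%). The stricter limma test, which also allows for how variances scatter from gene to gene, called 0 members, and it also called 0 of 6211 probe sets (0.0%). Before adjustment, at p under 0.05, limma picked 2 of the 13 member probe sets, the brighter of Gstm2 and the dimmer of Gstm3, against 425 of 6211 (6.84%). The median fold range of the members, highest over lowest signal, was 1.56, against 1.61 for all tested genes, and the median SD of log2 signal was 0.238, against 0.23.

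**Figure D1:**
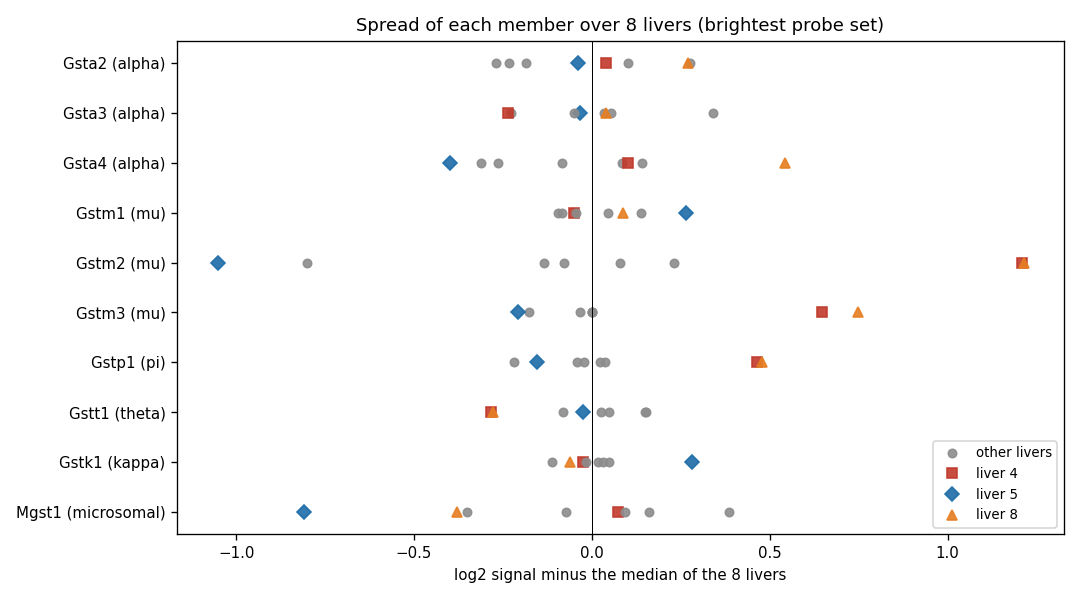
Log2 signal of each member's brightest probe set minus its median over the livers (x axis), with 1 row per gene and 1 point per liver. Red squares are liver 4, orange triangles liver 8, blue diamonds liver 5 and grey circles the other livers. Livers 4 and 8 sit to the right of all others for Gstm2, Gstm3 and Gstp1 and to the left of all others for Gstt1.

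The mu class held both the narrowest fold range of the members (Gstm1) and the widest (Gstm2), by each gene's brightest probe set. Gstm1, the principal mu enzyme of mouse liver, had a mean signal of 23198 ± 2089 (SD, n = 8) on its brighter probe set, with 21149.8 in liver 6 as the lowest, a median of 22607 and 27169 in liver 5 as the highest. Its SD of log2 signal, 0.126, was 0.657 times the typical SD at that signal. Gstm1 therefore spanned only 1.28-fold, and its dimmer probe set only 1.33-fold (506 to 673.5). The 2 Gstm1 probe sets did not rank the livers alike (Pearson r 0.0787, Spearman rho -0.0714 over 8 livers, given as a description). Both carry a marked ending, and what they read of other mu genes is not known here.

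Gstm2, a further cytosolic mu enzyme, varied most when each gene was read by its brightest probe set. On its brighter probe set, which has no marked ending, its signal was 450.6 in liver 5, 536.9 in liver 2, 851 to 1096 in livers 1, 3, 6 and 7, 2159 in liver 4 and 2167 in liver 8, with a mean of 1141 ± 666 (SD, n = 8). Livers 4 and 8 were thus close to each other and clear of the other 6. The range was 4.81-fold, the SD 3.61 times the typical SD, and the adjusted p of the typical-variance test was 4.73e-15. Without livers 4 and 8 the range was 2.43-fold and the adjusted p 0.000682. The dimmer probe set, of the kind with relaxed probe rules, went another way. Its lowest signal, 384.8, was in liver 4 and its highest, 859.8, in liver 8 (adjusted p = 0.0236, or 0.437 without livers 4 and 8), and its r with the brighter set was -0.382. The Gstm2 result is thus that of 1 of its 2 probe sets.

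Gstm3, a mu enzyme strongly inducible by phenolic antioxidants in mice, had livers 8 and 4 highest on both of its probe sets, but both carry a marked ending, and what they read of other mu genes is not known here. On the brighter set the signal was 7932 in liver 5, 9168 at the median and 15396 in liver 8, with 14363 in liver 4 and a mean of 10285 ± 2890.2 (SD, n = 8). The 6 other livers lay between 7932 and 9177. On the dimmer set the signal was 1806 in liver 5, 2764 at the median, 8221.5 in liver 4 and 9133 in liver 8. Both sets thus placed livers 4 and 8 clear of the rest, with a gap wider than the whole range of the other 6. The fold range was 1.94 on the brighter set and 5.06 on the dimmer one, and r between the 2 sets was 0.984. The typical-variance test gave adjusted p = 0.0228 and 2.14e-18 for these sets. Without livers 4 and 8 the ranges were 1.16-fold and 1.89-fold and neither passed (adjusted p = 1.0 and 0.217). The brighter set also missed the threshold without liver 4 alone (adjusted p = 0.0982), without liver 8 alone (0.399) and with arrays scaled to the same median (0.55), whereas the dimmer set passed in those settings.

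**Figure D2:**
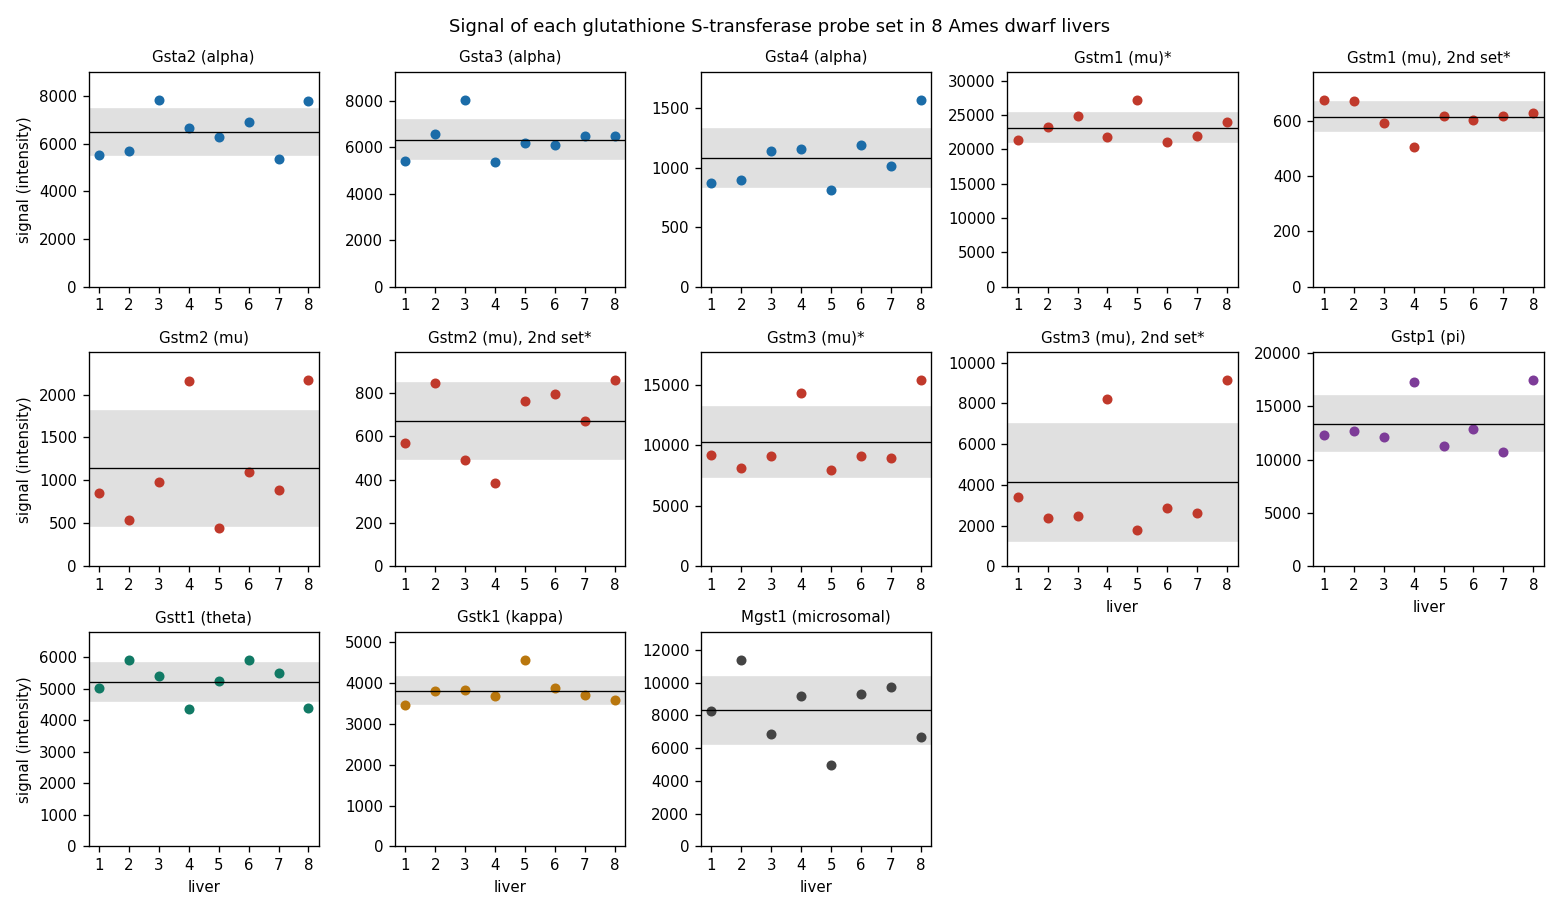
Signal on a linear axis that starts at 0 (y) against liver number (x) for the 13 probe sets, coloured by class. Points are single livers, the line is the mean and the grey band 1 SD either side, and an asterisk marks a name ending of the shared kind. Gstm3 and Gstp1 show livers 4 and 8 apart from the other 6, and the second Gstm2 set does not repeat the order of the first.

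Gstp1, the pi enzyme, which is more abundant in male than in female mouse liver, had a signal of 10762 in liver 7, a median of 12532, 17294 in liver 4 and 17456 in liver 8 (mean 13356 ± 2579, SD, n = 8). Livers 4 and 8 were again apart, and the other 6 lay between 10762 and 12845, a 1.19-fold range. Over all 8 livers the range was 1.62-fold and did not pass the typical-variance test (adjusted p = 0.452), although it did after quantile normalization (0.0114). Gstp2 and Gstp3 lie beside Gstp1 in the RefSeq annotation, and what the probes read of them is not known here. The cholangiocyte markers stayed at or under 42.3 in every liver and were too dim to be tested. Epcam, near the floor of 11.2, was highest in livers 4 (19.9) and 8 (16.9), which Krt19 and Krt7 did not repeat. The macrophage sum given above was also highest in livers 4 and 8. That sum was higher in liver 4 than in liver 8. Gstm2 (2159 in liver 4 and 2167 in liver 8) and Gstp1 were nearly level between these livers. Gstm3 was at 14363 in liver 4 and 15396 in liver 8. No relation of the sum to a member was tested. Of the 4 stellate cell and fibroblast markers tested, 2 passed the test, against 10.3% of all tested genes. Both had their highest 2 signals in livers 4 and 8, against 9.71% of all tested genes. They were the collagen genes Col1a1 (806 in liver 4 and 564 in liver 8, against 152.5 to 537 in the others) and Col3a1 (454 and 273, against 106 to 251). Col1a2, also a collagen gene of this list, did not repeat this order and did not pass. Its signal was lowest in liver 4 (1312.5) and was 1588.9 in liver 8, against 1572 to 1911 in the others. The Col1a2 probe set carries a marked ending. The sum of the 4 markers, 5691 to 8299, was led by Dcn, which did not pass either. Median array intensity moved too: its r was 0.696 with Gstm2 (exact permutation p = 0.0398, adjusted p = 0.3; rho = 0.714, exact permutation p = 0.0576, adjusted p = 0.589) and -0.747 with Gstt1 (exact permutation p = 0.0294, adjusted p = 0.3; rho = -0.5, exact permutation p = 0.216, adjusted p = 0.737). Without livers 4 and 8, which are also the 2 farthest from the median of either gene, these r were -0.0878 and 0.0169. The part of macrophages, of cholangiocytes, of stellate cells and fibroblasts and of array intensity in the result was not tested. In RNA from whole liver, more cells of a type and more RNA per cell cannot be told apart.

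Having the highest 2 signals in livers 4 and 8 was seen in 3 of the 10 members, against 468 of 4819 tested genes (9.71%). The reverse, the lowest 2 signals in those livers, was seen in 1 member, against 553 genes (11.5%), a share near that of all genes. That member was Gstt1, the theta enzyme that acts on small halogenated compounds. Its signal was 4370.2 in liver 4 and 4387 in liver 8, with a median of 5323 and 5909.8 in liver 6 as the highest. Gstt1 spanned only 1.35-fold, and its spread was below the typical one (SD ratio 0.795, adjusted p = 1.0).

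**Figure D3:**
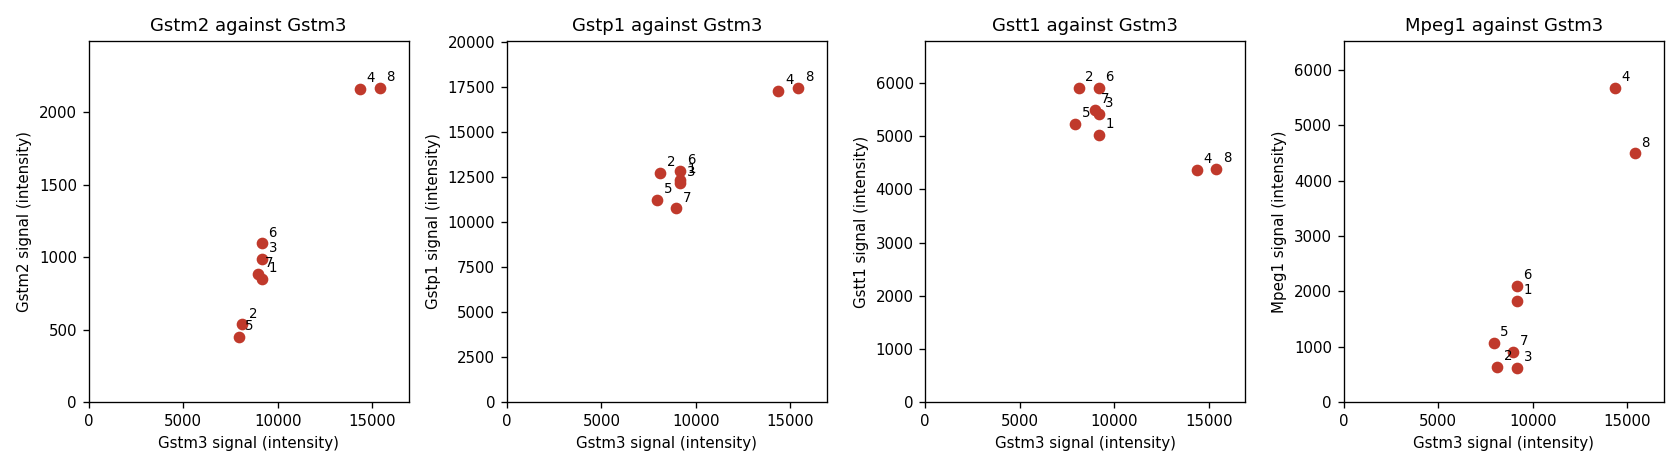
Signals of Gstm2, Gstp1, Gstt1 and the macrophage gene Mpeg1 (y axes) against that of Gstm3 (x axis), each point 1 liver with its number. Livers 4 and 8 form a separate pair in every panel, high for Gstm2, Gstp1 and Mpeg1 and low for Gstt1.

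The alpha genes spanned 1.46-fold to 1.92-fold and none passed the test. Gsta2, which conjugates a broad set of electrophiles, ranged from 5364 in liver 7 through a median of 6464 to 7818 in liver 3, with 7794 in liver 8 (mean 6502 ± 973, SD, n = 8, adjusted p = 0.991). Gsta3, which in mice detoxifies the aflatoxin epoxide, ranged from 5381 in liver 4 through a median of 6335 to 8026 in liver 3. Liver 3 alone set the Gsta3 range, since the others reached only 6572 and spanned 1.22-fold. Gsta4, which conjugates the lipid peroxidation product 4-hydroxynonenal, ranged from 815.5 in liver 5 through a median of 1077 to 1566 in liver 8. Liver 4, at 1154, read below liver 6 at 1187 for Gsta4, and without liver 8 the Gsta4 range was 1.46-fold.

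Gstk1 was among the steadiest members apart from 1 liver. Its signal was 3473 in liver 1, 3756 at the median and 4569 in liver 5 (mean 3821 ± 330.2, SD, n = 8), and without liver 5 the range was 1.12-fold. Mgst1, which also reduces lipid hydroperoxides, showed a further order. Its signal was 4974 in liver 5, 6709 in liver 8, 6841 in liver 3, 8287 in liver 1, between 9177 and 9752 in livers 4, 6 and 7, and 11382 in liver 2 (mean 8303 ± 2039, SD, n = 8). Liver 4 was thus in the upper part and liver 8 near the bottom, unlike Gstm3. The Mgst1 range was 2.29-fold with adjusted p = 0.0147, and as livers 4 and 8 are not its extremes, the range was also 2.29-fold without them. The call rested on liver 5 and liver 2, since adjusted p was 0.351 without the first and 0.109 without the second, and it was 0.148 with median scaling.

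Liver 5 held the highest or lowest signal of 6 of the 10 members, against 1708 of 4819 tested genes (35.4%). It was highest for Gstm1 and Gstk1 and lowest for Gsta4, Gstm2, Gstm3 and Mgst1. The red cell gene Hba-a1 also had its highest signal there (14118, against 6166 to 10225.5 in the other livers), and its part in these values was not tested.

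**Figure D4:**
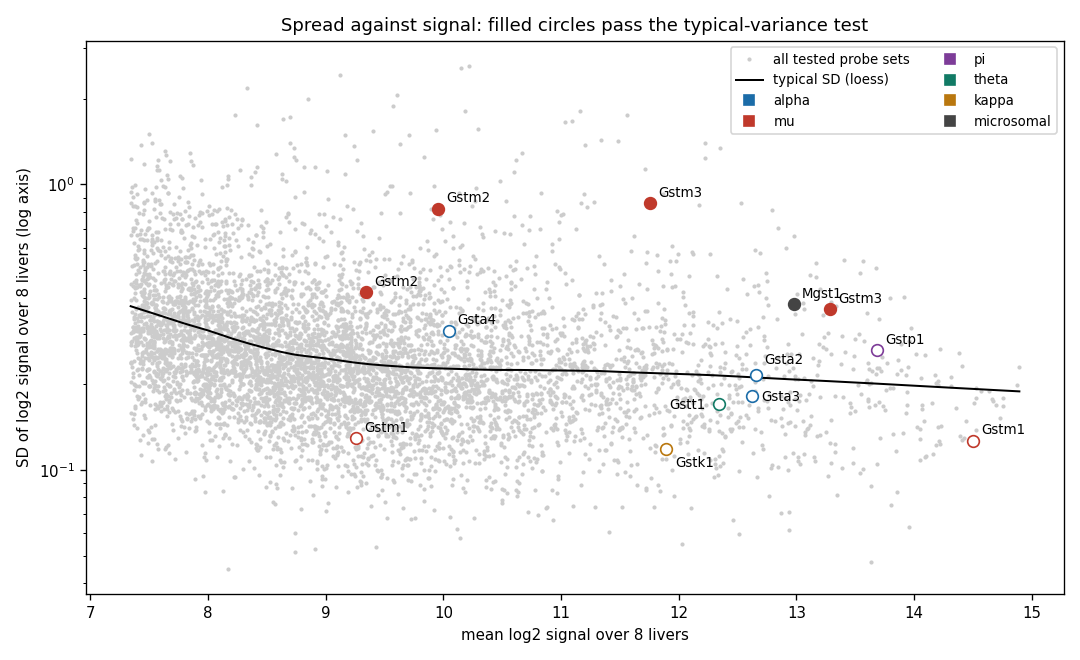
SD of log2 signal (y, log axis) against mean log2 signal (x) for all 6211 tested probe sets (grey) and the 13 member probe sets (circles coloured by class). The line is the typical SD at each signal, and filled circles passed the typical-variance test: 2 sets each of Gstm2 and Gstm3 and the Mgst1 set, while both Gstm1 sets and Gstk1 lie well below the line.

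Pairs of members were compared across livers in a family of 135 relations, made of the 45 pairs of members and each member against 7 other genes and 2 array measures. The 7 genes were Nr1i3, Nfe2l2, Ppara, Nqo1, Gclc, Saa3 and Igtp. In 43 of the 135 a gap in the values split the livers into clusters, namely all those with Gstm3, Gstp1 or the acute-phase gene Saa3, and no pooled correlation was formed. None of the remaining 92 passed after adjustment in exact two-sided permutation tests of Pearson's r (smallest adjusted p = 0.263), and 13 had an unadjusted p under 0.05. The closest pair of members was Gsta4 and Gstm2, with r = 0.86 (exact permutation p = 0.00392, adjusted p = 0.263) and rho = 0.952 (exact permutation p = 0.00114, adjusted p = 0.105). For Gsta4 and Gstm2, r was 0.7 without the 2 livers farthest from the Gsta4 median. Gstm1 ran against Mgst1 with r = -0.785 (exact permutation p = 0.0183, adjusted p = 0.263; rho = -0.571, exact permutation p = 0.151, adjusted p = 0.632). Leaving out the 2 livers farthest from the Gstm1 median gave r = -0.254. Gstm2 and Gclc, which encodes the catalytic subunit of the rate-limiting step of glutathione synthesis, gave r = 0.858 (exact permutation p = 0.00645, adjusted p = 0.263; rho = 0.905, exact permutation p = 0.00456, adjusted p = 0.167), and r = 0.605 without the 2 livers farthest from the Gstm2 median. Gstm2 gave r of like size with Igtp (0.827, exact permutation p = 0.0134, adjusted p = 0.263, rho = 0.619). With Nr1i3 its r was -0.828 (exact permutation p = 0.0114, adjusted p = 0.263, rho = -0.524). Without the same 2 livers these r were 0.402 and -0.515. Within the 6 livers other than 4 and 8, Gstm2 and Gstm3 gave r = 0.971 (exact permutation p = 0.0167, adjusted p = 0.562, rho = 0.6). The Gstm3 set, with its marked ending, spanned only 1.16-fold there. Gstk1 with Nr1i3 (r = 0.962, rho = 0.943) and Gsta2 with the beta-actin 3′ to 5′ ratio (r = -0.932, rho = -0.943) had a smaller exact permutation p there, 0.00972 (adjusted p = 0.562). Gsta3 with median array intensity gave r = -0.917 (exact permutation p = 0.0167, adjusted p = 0.562).

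Across all tested non-member genes, those most like a varying member over the 8 livers were found by Pearson's r, given as a description of 8 points. For Gstm2 they were Il18, an inflammatory cytokine (r = 0.974), Cyp7b1, an oxysterol hydroxylase (0.958), and Mettl9, a methyltransferase gene (0.944). For Gstm3 they were Trim21, a ubiquitin ligase and antibody receptor (0.98), Dtd1, a tRNA-editing enzyme (0.976), and Crybg1 (0.974). These r values with Gstm3 span the gap that barred a pooled correlation above, so they may reflect only the distance of livers 4 and 8 from the rest. All 6 had their highest signal in liver 4 or liver 8, which largely follows from their choice by likeness to Gstm2 or Gstm3. Il18 ranged from 176.5 to 463 and Cyp7b1 from 192.5 to 719.5, both highest in liver 4. For Mgst1 they were Eif5b, a translation initiation factor (0.954), Cd4, a T cell co-receptor (0.952), and Galt, an enzyme of galactose breakdown (0.95). All 3 were lowest in liver 5, as was Mgst1, by whose likeness they were chosen.

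Other genes of glutathione metabolism were compared from lists. Each count below stands against the shares of all 4819 tested genes. Of these, 10.3% passed, 9.71% had their highest 2 signals in livers 4 and 8, and 11.5% their lowest 2. Of 18 further transferase and related genes, 10 were on the array, 6 were bright enough to be tested and 0 passed, with a median fold range of 1.51. Mgst3, a microsomal relative, had the widest range of these (1083.6 in liver 4 to 2129 in liver 3), followed by Gstt2 (1978 in liver 8 to 3478 in liver 5) and Gstm5 (1531 in liver 4 to 2327 in liver 5). Gstz1, the zeta enzyme of tyrosine breakdown, and Gsto1, the omega enzyme, had their lowest 2 signals in livers 4 and 8, as Gstt1 did. Gstz1 was at 11146 in liver 4 and 10076 in liver 8, against 12016 to 15042 in the others. Gsta1, Mgst2, Ptges and Gdap1 were too dim to be tested.

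Of 23 genes of glutathione synthesis and recycling, 14 were on the array, 12 were tested and 0 passed (median fold range 1.58). Ggct, an enzyme of glutathione turnover, spanned 2.01-fold (114.5 to 230.7), Idh1 1.96-fold and Pgd, which supplies NADPH, 1.95-fold. Gclc, Txn1 (thioredoxin) and Pgd had their highest 2 signals in livers 4 and 8, whereas Glo1 and Hagh, the glyoxalases, had their lowest there. Gclc was at 2576 in liver 4 and 2651 in liver 8, against 1823 to 2475 in the others. Slc7a11, the cystine transporter, and Ggt5 were not tested.

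NRF2 targets and peroxide defence genes numbered 21, of which 17 were on the array, 16 were tested and 3 passed (median fold range 1.56). The 3 were the metallothioneins Mt1 (6275.5 in liver 1 to 19180.1 in liver 5, adjusted p = 3.05e-06) and Mt2 (5739.9 in liver 1 to 17963 in liver 3, 5.55e-07) and the haem oxygenase Hmox1 (717.5 in liver 3 to 2294 in liver 4, 0.000361). None of the 3 had its highest 2 signals in livers 4 and 8. Nqo1, a quinone reductase and classic NRF2 target, was highest in livers 8 (282) and 4 (254) but spanned 107 to 282 and did not pass (adjusted p = 0.408). Sod2 was likewise highest in livers 4 (1803) and 8 (1573). Nqo1 and Sod2 were 2 of the 16 tested, against 9.71% of all tested genes with this pattern. Of 19 genes of conjugate export and other conjugating enzymes, 14 were on the array, 13 were tested and 1 passed, the carbonyl reductase Cbr1 (543 in liver 5 to 1145 in liver 2, adjusted p = 0.0442). Tpmt spanned 1.95-fold and Sult1d1 1.93-fold. Abcc2, the canalicular pump for glutathione conjugates, had its lowest signals in livers 4 (554) and 8 (609), as did Ephx2 and Aldh1a1. These were 3 of the 13 tested, against 11.5% of all tested genes with this pattern.

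Among 16 regulators, 15 were on the array, 13 were tested and 4 passed, against 10.3% of all tested genes. Ppara, the receptor for fatty acids, spanned 5.79-fold (678 in liver 6 to 3925 in liver 3, adjusted p = 2.57e-21), Nr1i3 2.84-fold (3549.8 in liver 4 to 10092 in liver 5, 0.00097), Bach1, a repressor at AREs, 2.62-fold (426.5 in liver 1 to 1116.5 in liver 4, 0.0115), and Hnf4a 2.05-fold (745.8 in liver 2 to 1529 in liver 5, 0.00671). Nr1i3 was lowest in livers 4 and 8; its probe set, like those of Gstm5 and Nqo1, carries a marked ending. Nfe2l2 itself was steady, with signals between 1034 and 1294, a 1.25-fold range.

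**Figure D5:**
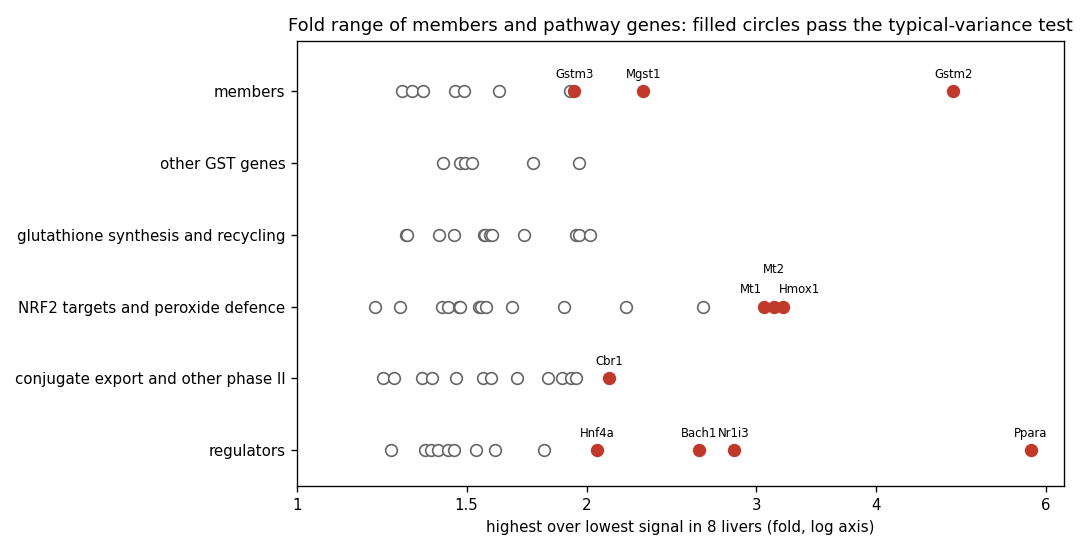
Fold range over 8 livers (x, log axis) of the 10 members and of the tested genes of 5 lists (rows), each circle 1 gene. Filled, named circles passed the typical-variance test: 3 members, 0 other transferases, 0 synthesis genes, 3 NRF2 and peroxide genes, 1 export gene and 4 regulators.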

How the data were processed

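Liver RNA of 8 mice was measured on 8 Affymetrix U74Av2 arrays read on a Hewlett-Packard GeneArray scanner, per the labels. The deposited table gives linear intensities, 1 value for each array and probe set; the sources used here name no image software, scaling target or detection calls. Trimmed means (2% at each end) differed by 0.00896% between arrays, so the intensities were used as deposited, and whether a low signal is above background is unknown. No 2 arrays shared over 0.296% of values. Signals under the 10th percentile (11.2) were set to it and log2 was taken by this re-analysis. The 66 controls were left out, and 6211 of 12422 probe sets, those whose mean log2 signal exceeded the median, were tested, covering 4819 genes, each by its brightest probe set. All 13 member probe sets passed this filter, and their Entrez identifiers matched RefSeq (GRCm38.p6) with 0 changed symbols.

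The typical-variance test set each variance against a loess curve (span 0.3) with a chi-square distribution of 7 degrees of freedom. The limma test (limma 3.58.1, R 4.3.3) set it against a trended robust prior with 4.9 prior degrees of freedom. Both were one-sided with Benjamini-Hochberg adjustment over all tested probe sets at 0.05, and were tested on simulated data. Relations used exact permutation over 40320 pairings (Python 3.11.15, SciPy 1.17.1). A gap over 50% of a range, with at least 2 livers on each side, barred a pooled correlation. Alternatives were median scaling, quantile normalization, other filters, no floor, leaving out probe sets of the shared kind, a wider loess span, mean values over probe sets and leaving out livers. The named genes were all members, for each varying member the 3 genes most like it, and from each list the genes that passed and the 3 with the widest range; others were named after their values were seen. The members and lists were chosen with earlier results of these data known. The labels name 8 mice but no batch, and the number of arrays limits the precision.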

Additional observations from a re-analysis of the deposited data

Results flagged for a closer look

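In 2 of the 13 member probe sets, 1 liver lay far from the others, with a gap to its nearest neighbour, as a share of the range of log2 signal, above Dixon's 95% critical value; chance alone gives this in about 5% of groups of this kind. Gstk1 read 4568.7 in liver 5, at a gap of 0.594 of the log2 range. The dimmer Gstm1 probe set read 506.2 in liver 4, the lowest value, at a gap of 0.553 of the log2 range, and the brighter Gstm1 set did not show this.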

How the results depend on the processing

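No paired analysis was possible because all samples belong to 1 group. The typical-variance test called 699 probe sets, 415 with a filter at the 70th percentile, where fewer were tested, and 585 to 689 with 1 liver left out. The limma test called 0 probe sets, but 10 with median scaling, 11 with the filter at the 70th percentile, 21 without probe sets of the shared kind and 0 to 4 with 1 liver left out; the cause was not tested. Of the members 3 were called, 1 with median scaling (Gstm2), and 2 to 3 with 1 liver left out. Of 190 repeats of the calls for the 13 member probe sets, 177 fell on the same side of the threshold, 12 lost a call and 1 gained one, Gstp1 with quantile normalization. Gstm2 on its brighter probe set passed the typical-variance test in each of its repeats, with adjusted p between 5.17e-16 and 0.000682. The repeats did not include the wider loess span. In the main limma test the adjusted p of this probe set was 0.321. The 0 relations past the threshold stayed at 0 in every alternative run. Mean log2 signals moved by less than 1 SD in 100 of 100 repeats and fold ranges in 94 of 100. Most of these repeats left out 1 of the 8 livers. That can move a mean only little, and a range only where the liver is highest or lowest. Such agreement was therefore largely fixed in advance. Leaving out livers 4 and 8 together was not among them, and it took the range from 4.81-fold to 2.43-fold for Gstm2 and from 1.94-fold to 1.16-fold for Gstm3. Folds of dim genes are uncertain, because signal over background is unknown.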
